A study of Rattus norvegicus with 20 samples.

Results

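The comparison described here set stretched rat lung epithelial monolayers that had received an inhibitor of the kinase PERK against stretched monolayers that had received vehicle. Its members were chosen by label: the 5 libraries titled as stretched with inhibitor (S_PI) and the 5 titled as stretched (S), 10 of the 20 libraries of the series. All 20 were QuantSeq 3' mRNA libraries, which give 1 fragment close to the 3' end of each polyadenylated transcript. The cells were primary type II pneumocytes of Sprague-Dawley rats, grown on fibronectin-coated silastic membranes for 4 days, over which they form monolayers of alveolar type I-like epithelial cells. S monolayers received 0.01% DMSO for 18 h and were then stretched cyclically for 6 h at 15 cycles per min, with a 25% change in surface area. S_PI monolayers received 1 µM GSK2606414 for 18 h and then the same 6 h of stretch. Unstretched monolayers with 0.01% DMSO (NS) or 1 µM GSK2606414 (NS_PI), 5 libraries each, are used below only to set beside this comparison. Their treatment lasted 24 h, and the series text gives 18 h for NS_PI. The labels give no DMSO content for the inhibitor groups and no age or sex of the animals. Each library pooled 4 monolayers of 1 animal, and the number 1 to 5 in each title was taken as the animal.

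PERK, encoded by Eif2ak3, is a kinase of the endoplasmic reticulum (ER) membrane that senses unfolded protein. When active it phosphorylates the translation factor eIF2, which lowers protein synthesis in general and raises translation of the transcription factor ATF4. ATF4 then drives genes for amino acid import, amino acid synthesis, tRNA charging and feedback on the pathway itself, and 3 other kinases can phosphorylate the same site of eIF2. GSK2606414 occupies the ATP site of PERK, and RIPK1 and KIT have been reported as further targets. These libraries measure mRNA, so neither PERK activity nor eIF2 phosphorylation was measured in the data used here.

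No gene passed the test between S_PI and S. Of 8320 genes tested with edgeR's quasi-likelihood test, 0 were called higher (0%) and 0 were called lower (0%) at an adjusted p below 0.05. The smallest adjusted p was 0.999. At an unadjusted p below 0.05 there were 340 genes (4.09%), 179 higher (2.15%) and 161 lower (1.94%). DESeq2 and limma-voom, with the same design, also called 0, with 286 and 334 genes at an unadjusted p below 0.05. That number depended on how animals entered the edgeR fit. With only S and S_PI, paired by animal, it was 529 of 7643 genes (6.92%). With each vehicle and inhibitor pair of an animal as its own block it was 663 (7.97%), and with no block 129 (1.55%). These fits also called 0, with smallest edgeR adjusted p of 0.383 and 0.194 in the paired fits. All 5 animals showed the higher value in S_PI for 318 genes (3.82%) and the lower value for 332 genes (3.99%). In 12 genes (0.144%) every S_PI library lay above every S library, and in 6 genes (0.0721%) every S_PI library lay below every S library.

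What the data exclude was read from the 95% confidence interval of each gene's fitted log2 fold change. A change of 2-fold in either direction lay outside the interval for 7289 genes (87.6%), and a change of 1.5-fold for 4110 genes (49.4%). Each interval stands for 1 gene and is not adjusted for the number of genes. These shares of all tested genes are the background for the counts given for each list below. The median SE of a log2 fold change was 0.21 and the median half-width of its interval was 0.43. A lone changed gene would have needed an unadjusted p of 6.01e-06 to be called, which at the median SE is a log2 change of 1.23, or 2.34-fold.

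The limit moved with the level of the gene. Levels are given in CPM, assigned counts scaled to a common library size with TMM. Among the 1458 genes with a mean under 10 CPM over the 10 libraries, 47.3% excluded a 2-fold change and 0.617% a 1.5-fold change. The 2191 genes from 10 to 30 CPM excluded these in 90.5% and 27.7%, and the 2599 genes from 30 to 100 CPM in 98.4% and 69.1%. For the 1418 genes from 100 to 300 CPM the shares were 99.5% and 81.7%. The 138 genes of at least 1000 CPM excluded 2-fold in 99.3% and 1.5-fold in 78.3%. The median fold at which a lone gene would be called was 4.53 in the lowest of these bands and 1.83 in the highest.

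**Figure D1:**
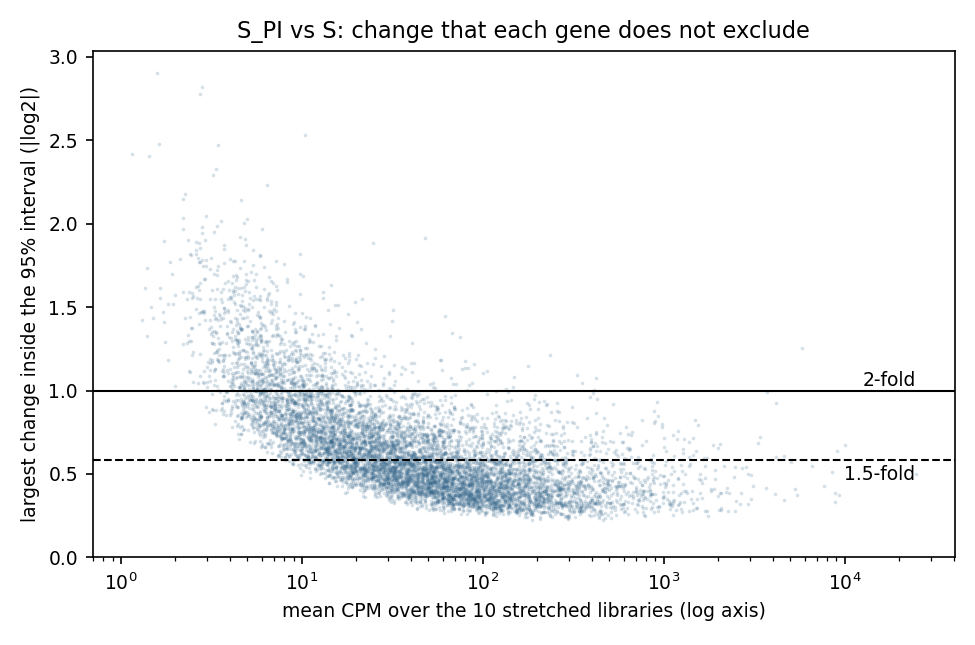
Each point is 1 of the 8320 tested genes; the horizontal axis is its mean CPM over the 5 S and 5 S_PI libraries (log axis) and the vertical axis the largest absolute log2 change inside its 95% interval. Points under the solid line exclude a 2-fold change (7289 genes) and points under the dashed line a 1.5-fold change (4110 genes); the cloud falls with level and flattens above about 100 CPM.

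The libraries held 999209 to 3131541 assigned counts in S and 1348640 to 1813947 in S_PI. The paired difference of -259320 ± 667064 counts (SD, n = 5), lower in 3 of 5 animals, was within the spread (exact paired permutation test, two-sided, p = 0.6875; with 5 pairs this test cannot go below 0.05). The pair of animal 1 stood apart: 955 genes (11.5%) differed by over 2-fold between its S_PI and S libraries, against 184 to 448 in the other 4 animals. Values without animal 1 are given below for part of the results, and values given without one can also depend on this animal. Named genes in which animal 1 stood apart are listed near the end. The type I marker Pdpn was at 603 to 2921 CPM and Ager, the receptor that marks type I cells, at 61.7 to 1035 CPM, while the type I water channel Aqp5 was at 0 to 5.49 CPM. Of the type II markers, the surfactant genes were low, with Sftpc at 0 to 32.7 CPM and Sftpb at 0.682 to 10.7 CPM, while others were not: Lyz2, a lysozyme that leukocytes also express, was at 1005 to 10829 CPM, the aspartic protease Napsa at 71.6 to 346 CPM, the transcription factor Nkx2-1 at 24.1 to 357 CPM and the lamellar body protein Lamp3 at 39.6 to 205 CPM. The summed type II markers, with a median of 7253 CPM in S, stood above the summed type I markers, with a median of 4157 CPM. This order rested on Lyz2, with a median of 5440 CPM over the 10 libraries. The next highest type II medians were 149 CPM for Nkx2-1 and 148 CPM for Napsa, so the sums do not rank the 2 cell types.

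The first genes considered were PERK itself and the regulators around ATF4. Eif2ak3 read 71.4, 273, 205, 134 and 111 CPM in S of animals 1 to 5, the order used throughout, and 235, 339, 264, 155 and 149 CPM in S_PI. It was higher with inhibitor in 5 of 5 animals, and the groups overlapped. The fitted log2 difference was 0.52 ± 0.22 (SE) (95% interval 0.08 to 0.97; edgeR unadjusted p = 0.0245, adjusted p = 0.999). Without animal 1, whose own difference was 1.70, the fitted difference was 0.31. In unstretched monolayers the Eif2ak3 difference was -0.01 (interval -0.46 to 0.45). An inhibitor of kinase activity need not move the mRNA of its target, so this level is no check of the labels.

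Atf4, whose mRNA encodes the factor that the pathway acts through, was at 1923, 3848, 3298, 3213 and 2396 CPM in S and 2221, 3714, 3309.7, 3058 and 2424 CPM in S_PI. The values of each animal lay close together and no direction was shared. Its log2 difference was 0.02 ± 0.14 (SE) with an interval of -0.28 to 0.32, which excludes a change of 1.5-fold. Ddit3 (CHOP), a pro-apoptotic factor induced downstream of ATF4, was at 111, 109.6, 134, 169.8 and 144 CPM in S and 89.4, 138, 125, 201 and 132 CPM in S_PI. Its log2 difference was 0.01 ± 0.14 (SE) (interval -0.28 to 0.30), also bounded inside 1.5-fold. Both were higher on average in S and in S_PI than in unstretched vehicle libraries, whose means were 76.9 CPM for Ddit3 and 1492 CPM for Atf4.

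Trib3, a pseudokinase induced by ATF4 and CHOP that restrains ATF4 in turn, was the gene of smallest p among those lower with inhibitor at a mean of at least 10 CPM. Its levels were 64.4, 124, 63.0, 161 and 133 CPM in S and 20.1, 83.0, 50.7, 109.8 and 83.2 CPM in S_PI. Every animal had the lower value in S_PI, but the animals differed so much that the groups overlapped. The log2 difference was -0.75 ± 0.20 (SE) with an interval of -1.16 to -0.33 (edgeR unadjusted p = 0.00118, adjusted p = 0.999). The difference in animal 1 was -1.63, and without that animal the fitted difference was -0.55. In unstretched monolayers, which share no library with this comparison, Trib3 was lower in 5 of 5 animals with a log2 difference of -0.98 (interval -1.40 to -0.55). The interaction, which is the stretched minus the unstretched log2 difference, was 0.23 (interval -0.36 to 0.82).

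Chac1, which degrades glutathione and is a target of ATF4, differed from Trib3 in direction. It was at 19.6, 92.4, 70.5, 56.9 and 61.8 CPM in S and 42.4, 113, 89.2, 80.8 and 86.6 CPM in S_PI, higher in 5 of 5 animals with overlapping groups. The log2 difference was 0.47 ± 0.27 (SE) (interval -0.10 to 1.04), so in this fit a 2-fold rise was not excluded while a 1.5-fold fall was. In 4 of 15 alternative fits the 2-fold rise was excluded too. The difference in animal 1 was 1.07, against 0.29 to 0.50 in the others. In unstretched monolayers the Chac1 difference was -0.56 (interval -1.18 to 0.06), and the interaction was 1.03 (interval 0.19 to 1.87; edgeR unadjusted p = 0.0191, not called after adjustment, where the smallest adjusted p over all genes was 0.984). Ddit4 (REDD1), an inhibitor of mTORC1 signalling, was at 12.6, 194, 127, 91.5 and 92.7 CPM in S and 25.2, 219, 169, 121 and 130.2 CPM in S_PI. It too was higher in 5 of 5 animals, at 0.39 ± 0.29 (SE) (interval -0.21 to 1.00), and the pair of animal 1 lay far below the others.

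Of 18 ATF4 regulators listed, 14 were tested and 0 were called. The 4 not tested, Atf5, Nupr1, Gdf15 and Fgf21, did not pass the filter on low counts. The median log2 difference of the 14 was -0.05, beside -0.01 over all tested genes, and ranged from -0.11 without animal 3 to -0.02 without animal 5. A 2-fold change was excluded in 12 of 14 (85.7%) and a 1.5-fold change in 8 of 14 (57.1%), beside 87.6% and 49.4% of all tested genes. Ddit4, at the 2-fold line, lost that bound in 8 of 15 alternative fits. Atf3, a stress-induced transcription factor, had a log2 difference of -0.17 (interval -0.53 to 0.18) and Ppp1r15a (GADD34), which brings a phosphatase to eIF2, of 0.07 (interval -0.42 to 0.55). Cebpb, a partner of ATF4 on DNA, had a log2 difference of -0.35 (interval -0.74 to 0.03).

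**Figure D2:**
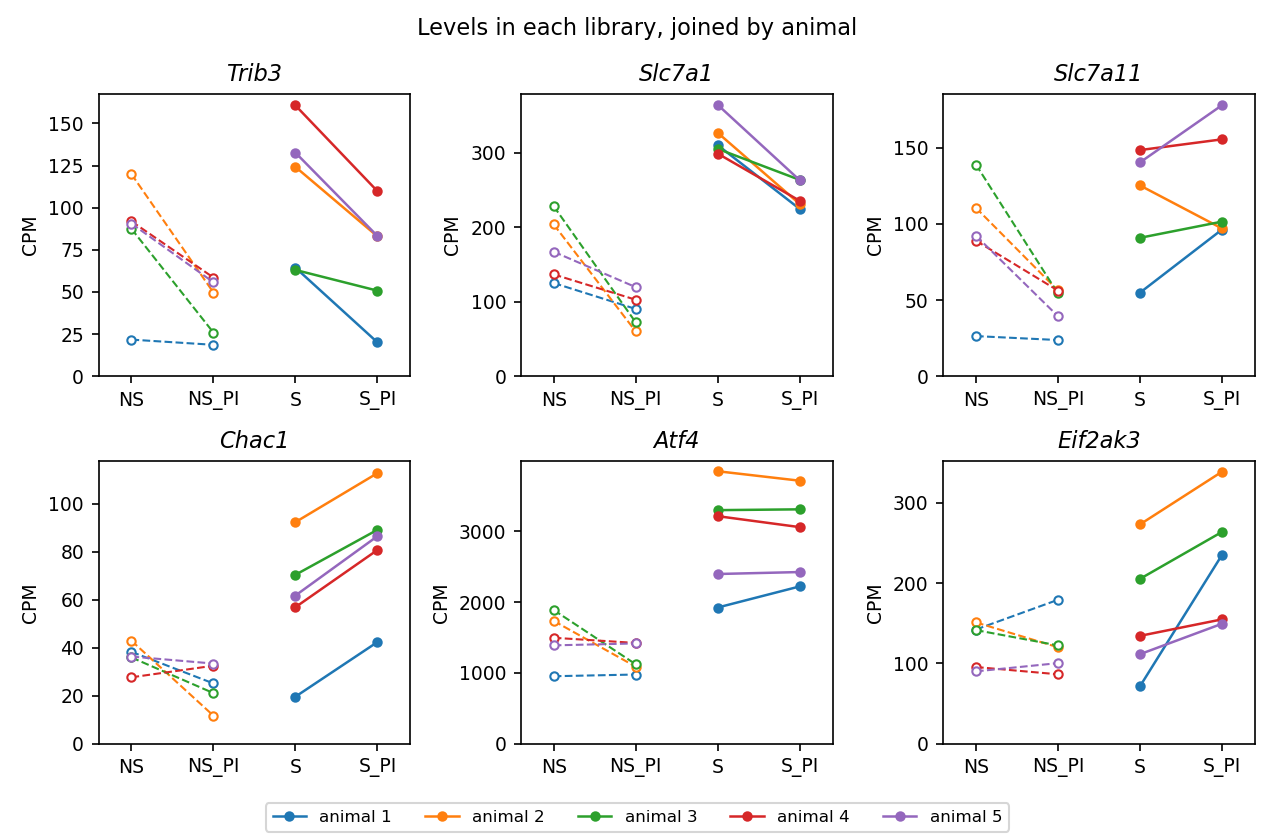
Levels of 6 genes in CPM (vertical axes from 0) in each library of the 4 groups; each colour is 1 of 5 animals, filled points and solid lines are stretched and open points and dashed lines unstretched monolayers. Trib3 and Slc7a1 lie lower with inhibitor in every stretched pair, Chac1 and Eif2ak3 higher, and Atf4 lies near its vehicle value.

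Among 14 tested eIF2 kinases, eIF2 and eIF2B subunits and stress sensors, of 15 listed, 0 were called, all 14 excluded a 2-fold change and 8 excluded 1.5-fold. The 2-fold bound was lost in 6 of 15 alternative fits for Eif2ak3 and in 3 of 15 for Eif2b3. The other eIF2 kinases were Eif2ak1 (HRI), with a log2 difference of 0.13, Eif2ak2 (PKR), with 0.06, and Eif2ak4 (GCN2), with 0.19. Eif2b5, the catalytic subunit of the eIF2 exchange factor, was at 62.9, 39.3, 43.3, 47.8 and 48.3 CPM in S and 42.4, 32.3, 32.1, 39.6 and 33.4 CPM in S_PI. It was lower in 5 of 5 animals, at -0.42 ± 0.14 (SE) (interval -0.71 to -0.13; edgeR unadjusted p = 0.00669, adjusted p = 0.999). The groups overlapped, the S library of animal 2 lying below the S_PI libraries of animals 1 and 4. Xbp1, the transcript spliced by the sensor IRE1, had a log2 difference of -0.07 (interval -0.54 to 0.39), and these gene counts do not separate its spliced form. Of the 8 genes listed for the reported second targets, Ripk1, Ripk3, Kitlg and Tradd were tested. Ripk1 had a log2 difference of -0.03 (interval -0.36 to 0.30), and Kit did not pass the filter on low counts.

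The promoters of several genes of the pathway carry the letters of the C/EBP-ATF response element, the composite site on which ATF4 and a C/EBP partner bind. It was searched on both strands as TGATGNAA in the 250 bases before and 50 bases after each RefSeq gene start of the build GRCr8. A match was present in 1141 of 27457 promoters (4.16%), in 130 of the 6821 tested genes that had a promoter (1.91%), and in 7 of the 17 aminoacyl-tRNA synthetases with a promoter (41.2%). It was present in 3 of 12 ATF4 regulators, 2 of 9 amino acid transporters and 1 of 11 amino acid and one-carbon synthesis genes, and in 0 of 15 ER chaperones. The stretches are shown for 6 genes whose values are given in the text, 5′ to 3′ on the strand of the gene, with the match in capitals, TTGCATCA and TTACATCA being matches read on the other strand:
Trib3, chr3:161275534-161275570, minus strand: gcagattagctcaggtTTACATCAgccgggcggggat
Chac1, chr3:126795948-126795987, plus strand: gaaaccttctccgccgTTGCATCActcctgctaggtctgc
Slc7a1, chr12:11664442-11664481, plus strand: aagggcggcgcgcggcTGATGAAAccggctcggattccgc
Aars, chr19:55908354-55908393, plus strand: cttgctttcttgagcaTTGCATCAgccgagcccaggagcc
Iars, chr17:15193653-15193692, minus strand: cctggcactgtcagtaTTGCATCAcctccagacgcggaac
Mars, chr7:65023754-65023786, minus strand: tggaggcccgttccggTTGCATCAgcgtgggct
The match of Trib3 starts 21 bases before the gene start, that of Chac1 167 bases and that of Slc7a1 30 bases before it. A match is a description of letters and not a measured binding site. Of the 6 genes shown, Trib3 and Slc7a1 were lower and Chac1 higher in 5 of 5 stretched animals, and none was called. The interval of Chac1 included 0, and the fitted differences of Aars, Iars and Mars, given below, were under 0. A shared direction over all genes with a match was not tested.

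Amino acid transporters came next, as genes on which ATF4 acts to supply the cell. Slc7a1, the cationic amino acid importer, was at 310.3, 327, 305, 299 and 364 CPM in S and 225, 231, 264, 236 and 263 CPM in S_PI. Every S_PI library lay below every S library, which over all tested genes happened in 0.0721%. The log2 difference was -0.40 ± 0.17 (SE) (interval -0.74 to -0.06; edgeR unadjusted p = 0.0242, adjusted p = 0.999), so a 2-fold fall was excluded. In unstretched monolayers Slc7a1 read 125, 204, 228, 137 and 167 CPM with vehicle and 90.3, 60.0, 72.2, 103 and 119.6 CPM with inhibitor. That difference was -0.95 (interval -1.31 to -0.60; edgeR adjusted p = 0.133), and the interaction was 0.55 (interval 0.06 to 1.05).

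Slc7a11, the cystine and glutamate exchanger that feeds glutathione synthesis, was at 54.8, 125, 90.8, 148 and 140.4 CPM in S and 96.3, 97.0, 101, 156 and 178 CPM in S_PI. It was higher with inhibitor in 4 of 5 animals and the groups overlapped. The log2 difference was 0.23 ± 0.22 (SE) (interval -0.23 to 0.70), which excludes a fall of 1.5-fold. Without stretch, Slc7a11 read 26.3, 111, 139, 89.0 and 92.2 CPM with vehicle and 23.7, 56.3, 54.3, 56.2 and 39.4 CPM with inhibitor, lower in 5 of 5 animals. That difference was -0.93 (interval -1.41 to -0.44), and the interaction was 1.16 (interval 0.49 to 1.83; edgeR unadjusted p = 0.00169), not called after adjustment. Slc38a2, the most abundant transporter of the list, had means of 1390.2 CPM in S and 1379 CPM in S_PI and a log2 difference of 0.00 (interval -0.27 to 0.28). Slc3a2, the chain shared by several exchangers, had a log2 difference of 0.03 (interval -0.40 to 0.46).

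Of the 14 transporters listed, 11 were tested, with a median log2 difference of 0.03, and 10 excluded 2-fold. In the 14 tested amino acid and one-carbon synthesis genes, of 19 listed, the median was -0.11 and 12 excluded 2-fold. The synthesis median was -0.01 without animal 1 and ranged from -0.14 to -0.01 over the 5 fits that left out 1 animal, and the transport median ranged from -0.01 to 0.09. Asns, asparagine synthetase, was at 73.9, 40.3, 41.4, 55.9 and 78.5 CPM in S and 69.3, 34.8, 50.2, 67.8 and 42.3 CPM in S_PI. These values overlapped and the animals did not share a direction, at -0.13 ± 0.23 (SE) (interval -0.62 to 0.36). Shmt2, the mitochondrial serine hydroxymethyltransferase, had a log2 difference of 0.01 (interval -0.34 to 0.35), beside -0.73 (interval -1.09 to -0.37) without stretch. Psph, the last enzyme of serine synthesis, was lower in 5 of 5 animals at -0.49 ± 0.23 (SE) (interval -0.98 to -0.01), and without animal 1 the value was -0.29. Aldh1l2, a mitochondrial folate enzyme, was higher in 4 of 5 animals at 0.74 ± 0.28 (SE) (interval 0.15 to 1.33), and without animal 1 the value was 0.56. A wide interval was that of Cth, which makes cysteine from cystathionine, at -0.59 (interval -1.33 to 0.15) on means of 15.1 and 9.32 CPM.

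All 20 aminoacyl-tRNA synthetases listed were tested. These enzymes load amino acids onto their tRNAs. In stretched monolayers all 20 excluded a 2-fold change and 14 a 1.5-fold change, and their median was -0.14, with 16 of 20 below 0. That median ranged from -0.18 to -0.09, the latter without animal 1. Sars was at 296, 214, 234, 227 and 303 CPM in S and 242, 193, 197, 204 and 186 CPM in S_PI, lower in 5 of 5 animals at -0.32 ± 0.14 (SE) (interval -0.62 to -0.02; edgeR unadjusted p = 0.0375, adjusted p = 0.999). Without animal 5, which had the lowest S_PI value, it was -0.22. Iars had a log2 difference of -0.32 (interval -0.66 to 0.02), Mars of -0.13 (interval -0.54 to 0.28) and Aars of -0.18 (interval -0.59 to 0.22). In S, Iars read 361, 203, 142, 164 and 169 CPM and in S_PI 185, 155, 143, 157 and 164 CPM, so that the S library of animal 1 stood above the rest.

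The 4 lists are set here beside the unstretched pairs. In NS_PI against NS the medians were -0.21 for ATF4 regulators, -0.52 for amino acid transport, -0.46 for amino acid and one-carbon synthesis and -0.54 for aminoacyl-tRNA synthetases. The corresponding stretched medians were -0.05, 0.03, -0.11 and -0.14. Over the 59 tested genes of the 4 lists, 36 were below 0 with stretch and 51 without, with medians of -0.09 and -0.41. At an unadjusted p below 0.05, 4 of the 59 were lower with stretch and 27 without, against a background of 1.94% and 2.91% of all genes. The members of the lists were chosen with earlier results of these libraries known, so these counts are descriptions. Without animal 1 the numbers lower were 4 with stretch and 36 without, with medians of -0.04 and -0.54. Leaving out animal 2 gave 17 without stretch, and leaving out animal 5 gave 1 with stretch. With each vehicle and inhibitor pair of an animal as its own block, 8 were lower with stretch and 36 without, and with no block 1 and 22. With stretch, 54 of the 59 (91.5%) excluded a 2-fold and 32 (54.2%) a 1.5-fold change, beside 87.6% and 49.4% of all tested genes. Without animal 4 the number that excluded 1.5-fold was 21, and without animal 1 it was 40. With each pair as its own block it was 45, and with no block 20.

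The interaction was tested gene by gene. Over all 8320 genes 0 were called higher (0%) and 0 lower (0%), with 345 at an unadjusted p below 0.05 (4.15%), 2.08% higher and 2.07% lower. The NS_PI against NS test itself called 0 higher (0%) and 0 lower (0%), with 455 at an unadjusted p below 0.05 (5.47%), 2.56% higher and 2.91% lower, and all 5 pairs were higher in 5.22% and lower in 6.2% of genes. Its intervals excluded 2-fold in 89.3% and 1.5-fold in 51.2% of genes, and those of the interaction in 66.6% and 19.2%. With each vehicle and inhibitor pair of an animal as its own replicate block, NS_PI against NS called 6 genes higher (0.0721%) and 25 lower (0.3005%). Among the lower ones were Slc7a11, Slc7a1, Trib3, Atf3, Asns, Shmt2, Mars, Iars and Sars. In the lists, which were chosen with earlier results known, those called lower were 2 of 14 ATF4 regulators and 2 of 11 transporters. They were also 4 of 14 synthesis genes and 7 of 20 synthetases. The same block called 0 genes in S_PI against S, with a smallest adjusted p of 0.194, and 0 in the interaction. A difference in the number of calls is therefore not a tested difference between stretched and unstretched monolayers.

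**Figure D3:**
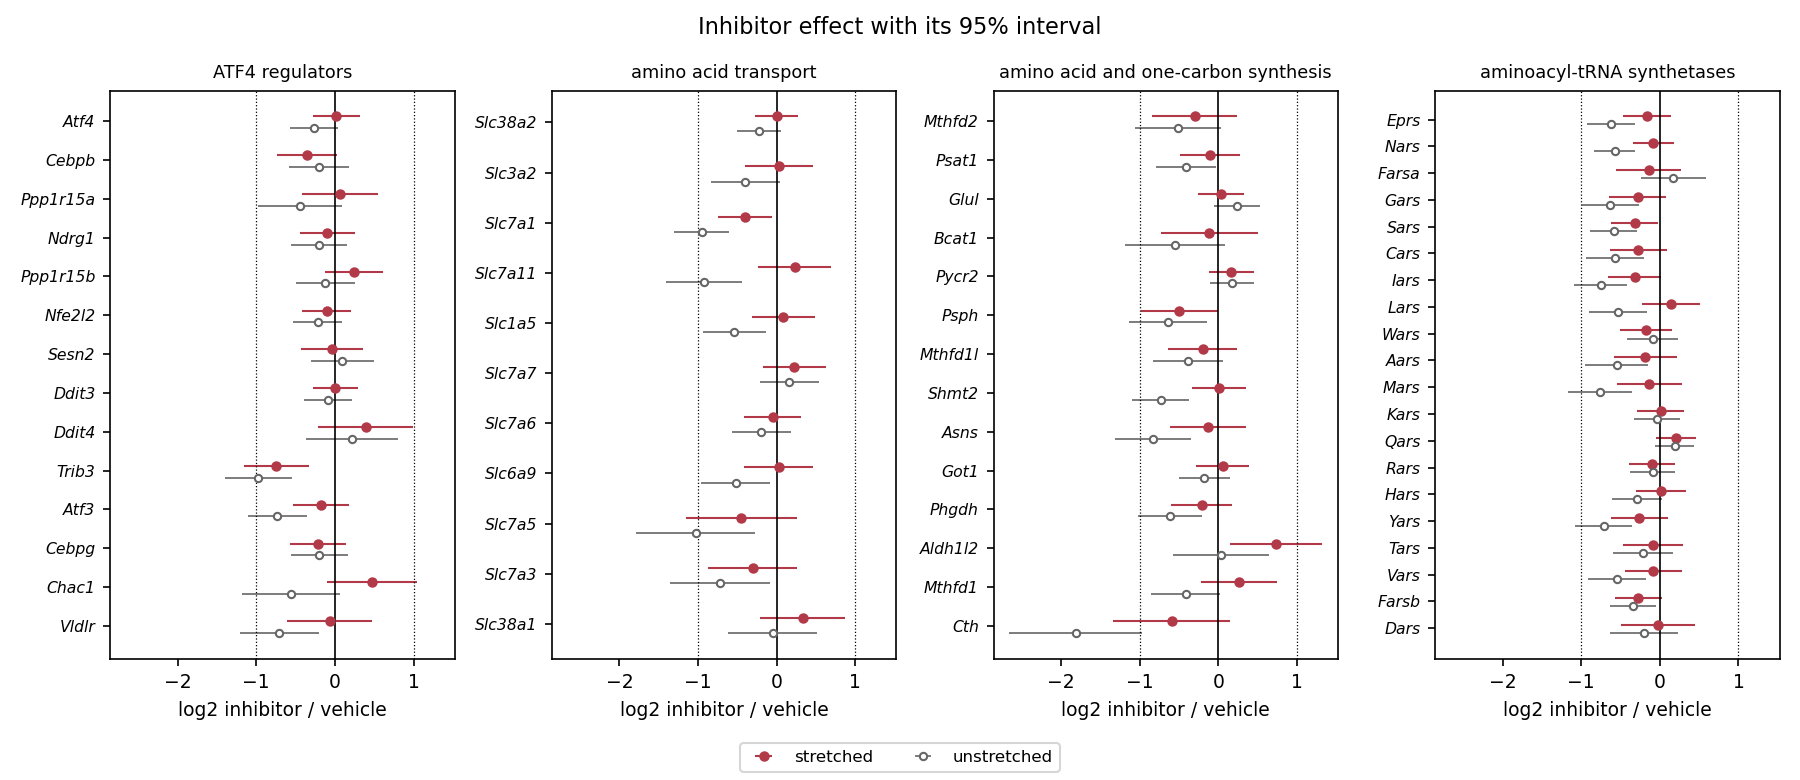
Log2 inhibitor over vehicle (horizontal axes) with 95% intervals for the 59 tested genes of 4 lists; filled red points are stretched (S_PI over S) and open grey points unstretched monolayers (NS_PI over NS), each from 5 animals, and dotted lines mark 2-fold. Most red points lie near 0 (median -0.09), Trib3 and Slc7a1 lie below 0 in both, and Slc7a11 lies on opposite sides.

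The profiles of differences correlated weakly between animals. Across the 8320 genes, the correlation of the S_PI minus S differences between 2 animals had a median of 0.010 over the 10 pairs of animals and ranged from -0.024 to 0.136. For NS_PI minus NS the median was 0.097 and the range -0.080 to 0.301. The fitted differences with and without stretch, which share no library, had a correlation of 0.037 over the 8320 genes and 0.57 over the 59 genes of the 4 lists. These are descriptions across genes, which are not independent replicates.

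The genes of smallest p outside these lists are given as values that were not called. Fzd1, a receptor for Wnt ligands, was at 60.3, 37.8, 47.6, 56.9 and 106 CPM in S and 144, 63.4, 61.2, 117 and 138 CPM in S_PI. It was higher in 5 of 5 animals, with overlapping groups, at 0.76 ± 0.18 (SE) (interval 0.38 to 1.14; edgeR unadjusted p = 0.000423, adjusted p = 0.999), and this p was the smallest of all. Mt2A, a metallothionein that binds zinc and copper, was at 41.2, 22.5, 31.5, 59.0 and 48.3 CPM in S and 99.1, 42.1, 43.2, 68.6 and 74.3 CPM in S_PI, a log2 difference of 0.69 ± 0.17 (SE). Without animal 1 the Mt2A difference was 0.54. Mmd had a log2 difference of 0.48 ± 0.14 (SE) and Celf4, an RNA-binding protein, of 0.89 ± 0.25 (SE), both higher in 5 of 5 animals. Etfdh, which passes electrons from fatty acid oxidation to the respiratory chain, was at 7.54, 9.64, 6.18, 11.2 and 12.2 CPM in S and 37.8, 12.8, 14.0, 15.2 and 13 CPM in S_PI. Every S_PI library lay above every S library, at 0.94 ± 0.26 (SE), and without animal 1 the difference was 0.51.

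On the lower side, Krt18, a keratin of simple epithelia, was at 618, 233, 337, 169 and 226 CPM in S and 335, 182, 245, 130.4 and 156 CPM in S_PI. It was lower in 5 of 5 animals, with overlapping groups, at -0.54 ± 0.16 (SE) (interval -0.87 to -0.21; edgeR unadjusted p = 0.00293, adjusted p = 0.999), and -0.32 without stretch (interval -0.64 to 0.01). Ppil3, a peptidyl-prolyl isomerase, had a log2 difference of -0.62 ± 0.18 (SE), lower in 5 of 5 animals. Acta1, skeletal muscle actin, was at 298, 17.8, 29.0, 11.2 and 17.4 CPM in S and 42.4, 23.2, 25.7, 6.86 and 5.45 CPM in S_PI. Its log2 difference of -1.19 ± 0.35 (SE) followed the high S library of animal 1, and without that animal it was -0.34. RT1-CE14, a class I histocompatibility gene, had a log2 difference of -0.95 ± 0.26 (SE). Reads with several alignments, which near-identical class I copies can give, were counted to no gene, and this value is uncertain.

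Genes of the unfolded protein response that act beside ATF4 came next. Over all tested genes 87.6% excluded 2-fold and 49.4% 1.5-fold, and these shares were larger for abundant genes. Of 20 ER chaperones listed, 19 were tested, all excluded 2-fold and 16 excluded 1.5-fold, with a median of 0.12 in stretched and 0.17 in unstretched monolayers. The stretched median ranged from 0.07, without animal 4, to 0.16 when 1 animal was left out. Hspa5 (BiP), the chief chaperone of the ER lumen, was at 7357, 7313, 6351, 9391 and 9836 CPM in S and 9919.8, 7179, 6894, 9699 and 10912 CPM in S_PI. It was higher in 4 of 5 animals, at 0.16 ± 0.17 (SE) (interval -0.19 to 0.51). Calr, a lectin chaperone, had a log2 difference of -0.06 (interval -0.39 to 0.27). The 16 tested genes of ER-associated degradation and export all excluded 2-fold. Herpud1, which works in that degradation, had a log2 difference of -0.11 (interval -0.49 to 0.26), and Ssr3, of the translocon, of 0.16 (interval -0.07 to 0.39).

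Immediate-early genes and feedback genes of MAPK signalling are the first to respond to many stimuli of the cell. Of 34 listed, 28 were tested, 0 were called, the median was -0.03 and 24 excluded a 2-fold change. Without stretch the median was -0.25. Csrnp1, an immediate-early nuclear protein, had means of 312 ± 123 CPM in S and 292 ± 127 CPM in S_PI (SD, n = 5), beside 31.7 ± 5.79 CPM in NS. Its difference with inhibitor was -0.11 (interval -0.45 to 0.23). Klf6, a zinc-finger factor, had a log2 difference of -0.03 (interval -0.30 to 0.24), Dusp2, a MAPK phosphatase, of 0.05 (interval -0.37 to 0.46) and Nr4a2, an orphan nuclear receptor, of 0.01 (interval -0.37 to 0.39). The most abundant members, Ier3 and Dusp6, were at 0.25 (interval -0.19 to 0.69) and -0.23 (interval -0.79 to 0.34). Jund was lower in 5 of 5 animals, at -0.26 (interval -0.55 to 0.02). Fosl1 was at -0.28 (interval -0.81 to 0.25). Without stretch Fosl1 was at -1.61 (interval -2.59 to -0.64), on means of 6.32 CPM in NS and 2.04 CPM in NS_PI, and its interaction of 1.33 was not called. The 4 genes that did not exclude 2-fold, Egr2, Nr4a3, Dusp8 and Spry4, had means of 7.13, 9.69, 6.88 and 5.24 CPM in S.

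Inflammatory mediators gave a median of 0.06 over 23 tested of 31 listed, with 0 called. Ccl2, the chemokine that draws monocytes, was at 5482, 3666, 3787, 3335 and 5316 CPM in S and 16010.5, 4166, 5142, 4946 and 5955 CPM in S_PI. It was higher in 5 of 5 animals, at 0.65 ± 0.29 (SE) (interval 0.05 to 1.26; edgeR unadjusted p = 0.0384, adjusted p = 0.999), and the S_PI library of animal 1 was far above the others. Without animal 1 the difference was 0.31. Nfkbia, the inhibitor that NF-kB induces, had a log2 difference of 0.10 (interval -0.26 to 0.46).

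Cytoskeletal, matrix and metabolic lists lay close to 0. The targets of the stretch-sensitive regulators YAP and TEAD had a median of 0.01 over 9 tested genes, with Ctgf, a matricellular protein, at 0.01 (interval -0.41 to 0.43). MRTF and SRF targets had a median of 0.03 over 15, all excluding 2-fold, with Actb at 0.09 (interval -0.20 to 0.39). The 18 tested genes of cholesterol and fatty acid synthesis all excluded 2-fold and 16 excluded 1.5-fold. Srebf2, the chief regulator of the cholesterol genes among them, had a log2 difference of 0.01 (interval -0.33 to 0.35). All 19 tested heat shock genes excluded 2-fold, and Hsp90ab1 had a log2 difference of -0.15 (interval -0.50 to 0.20). Among 20 tested genes of hypoxia and glycolysis 19 excluded 2-fold. Of the matrix genes, Fn1, fibronectin, was at means of 24669 and 24660.2 CPM with a log2 difference of 0.05 (interval -0.39 to 0.50).

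Ctsb, a lysosomal protease, was the 1 gene of 19 tested in the autophagy and lysosome list with an unadjusted p below 0.05, a share near the 4.09% of all tested genes. It was at 3019, 3089.8, 3161, 3153 and 3257 CPM in S and 1924, 2883, 2311, 3036 and 2839.8 CPM in S_PI, lower in 5 of 5 animals, at -0.28 ± 0.13 (SE) (interval -0.54 to -0.02; edgeR unadjusted p = 0.0338, adjusted p = 0.999). Only the S_PI library of animal 4 lay inside the range of the S libraries. Ctsd, another lysosomal protease, had a log2 difference of -0.01 (interval -0.37 to 0.36). Over the 19 tested autophagy and lysosome genes the median was 0.03 and all excluded 2-fold.

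Cdh1, the E-cadherin of epithelial junctions, was abundant but loosely bounded. Its means were 4385 ± 2767 CPM in S and 3944 ± 2559 CPM in S_PI (SD, n = 5), and its interval of -0.92 to 0.56 leaves a change of nearly 2-fold inside. Of the 16 tested junction genes 15 excluded 2-fold and 5 excluded 1.5-fold, with a median of -0.08. At an unadjusted p below 0.05, 2 of them were lower and 0 higher, against 1.94% and 2.15% of all tested genes. The 15 tested genes of ion and water transport had a median of -0.09, with 12 below 0 and 11 excluding 2-fold. Markers of proliferation (25 tested, 23 excluding 2-fold) and p53 targets and apoptosis regulators (20 tested, 19 excluding 2-fold) had medians of 0.06 and 0.02.

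Markers of other cells were measured in the same libraries. The 12 fibroblast and smooth muscle markers summed to 3999 to 12543 CPM in S and 4031 to 14383 CPM in S_PI, with a paired log2 difference of 0.12 ± 0.20 (SD, n = 5), higher in 4 of 5 animals (exact paired permutation test, two-sided, p = 0.3125). Of the 8 tested, 2 were higher at an unadjusted p below 0.05, against 2.15% of all tested genes, and the median was 0.23. The collagen genes Col1a1 and Col3a1 were at 3030 to 11628 and 248 to 1138 CPM and the smooth muscle actin Acta2 at 565 to 2426 CPM, while Thy1 was at 0 to 0.762 CPM and Col1a2 at 0 to 5.34 CPM. Leukocyte markers summed to 1711 to 4352 CPM in S and 1883 to 3964 CPM in S_PI. Their paired log2 difference was -0.10 ± 0.15 (SD, n = 5), higher in 1 of 5 animals (exact paired permutation test, two-sided, p = 0.25). Of the 16 leukocyte markers 14 were tested, and none was called, as for all tested genes. Type I markers summed to 1568 to 7668 CPM in S and 1528 to 7261 CPM in S_PI, a paired difference of -0.07 ± 0.24, and type II markers to 1449 to 11459 CPM in S and 1718 to 10885 CPM in S_PI, a paired difference of 0.03 ± 0.21. Airway epithelial markers summed to 353 to 2299 CPM in S and 385 to 2014 CPM in S_PI, a paired difference of -0.02 ± 0.35. Scgb1a1 alone was at 205 to 2102 CPM. Mesothelial markers summed to 507 to 1080 CPM in S and 468 to 673 CPM in S_PI, a paired difference of -0.18 ± 0.33, higher in 1 of 5 animals. Endothelial markers summed to at most 5.53 CPM, with 3 of 8 at 0 in all 10 libraries, and red cell markers were at 0. The part of these markers in the values above was not tested, and fewer cells of a type and less RNA per cell cannot be told apart in bulk libraries.

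**Figure D4:**
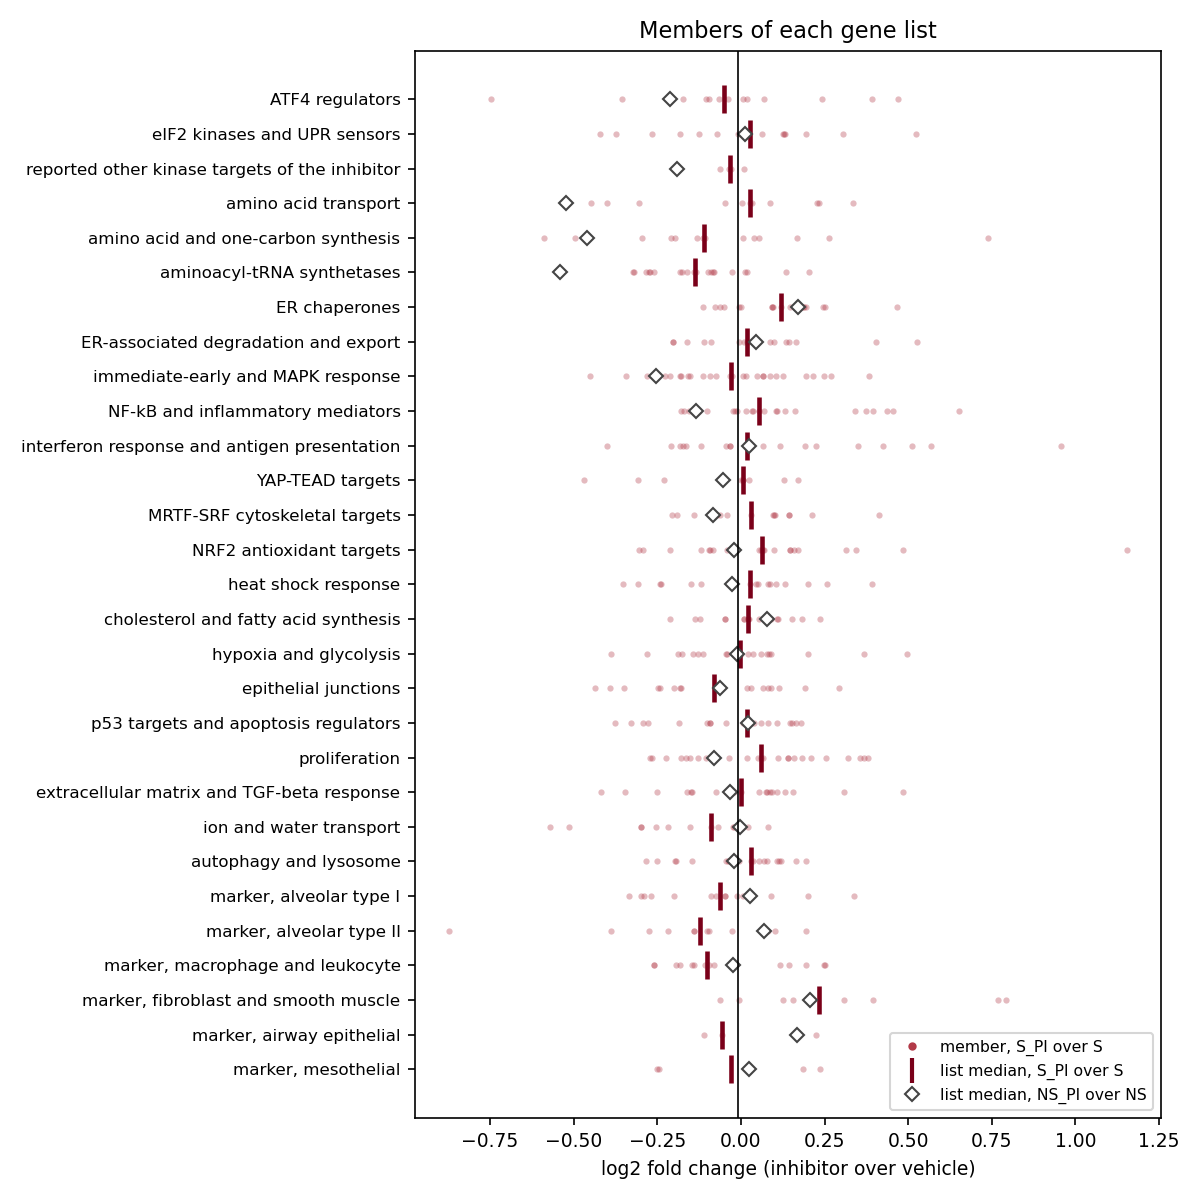
Log2 change of each tested member (small points) of 29 lists in S_PI over S, with the list median (vertical mark) and the list median of NS_PI over NS (diamond); the black line is the median of all tested genes. The stretched medians lie between -0.14 and 0.23, and the 3 amino acid lists are those whose unstretched medians lie farthest from the stretched ones.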

How the data were processed

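The authors deposited raw counts per gene for 17337 symbols in 20 libraries, with 75-base single reads; alignment to rn6 with STAR and counting with HTSeq are named in the submitters' processing notes, while the labels name no version, annotation or strand setting. The deposited DESeq2 table was not used. The 5 HTSeq summary entries, which name no gene, were left out; reads outside any gene made up 16.5% to 24.5% and reads with several alignments 35.5% to 57.7% of each S and S_PI library.

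Genes were filtered with filterByExpr (8320 kept) and fitted in 1 model over all 20 libraries with group and animal as terms (edgeR 4.0.16, TMM, quasi-likelihood F test, R 4.3.3). P-values were adjusted by Benjamini-Hochberg over the 8320 genes. Intervals used the quasi-likelihood standard error. The script was tested on simulated data. The animal block follows the title numbers: deviations from group means of S and S_PI libraries of the same number correlated at 0.52 to 0.75, and of different numbers at -0.52 to 0.48, each of the 5 being highest with its own number. None of the 190 pairs of the 20 libraries agreed within sampling noise. Alternatives used limma 3.58.1 and DESeq2 1.42.0.

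The members, lists and rules were chosen with earlier results of these data known. Named genes were the 5 of smallest unadjusted p in each direction with a mean of at least 10 CPM, all members of the 3 PERK and ATF4 lists, and the 2 most abundant members of each other list; amino acid genes with an unadjusted p below 0.05 in either inhibitor contrast, the immediate-early genes and genes that illustrate an interval were added after their values were seen. Of the tested symbols, 8237 matched the RefSeq gene table, 494 of them by synonym.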

Additional observations from a re-analysis of the deposited data

Results flagged for a closer look

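Of 123 groups of 5 values, which were the paired log2 differences S_PI minus S of 114 named genes and 7 marker sums and the 2 sets of library totals, 9 held a value whose gap to the nearest of the others exceeded 0.71 of the whole range. Chance gives such a gap in about 1 of 20 groups, and 8 of the 9 values were those of animal 1. In that animal Trib3 differed by -1.63 (the others -0.67 to -0.31), Chac1 by 1.07 (0.29 to 0.50) and Eif2ak3 by 1.703 (0.20 to 0.42). Among metabolic genes, Psat1, of serine synthesis, differed by -0.7706, Psph by -1.04 and Pgk1, of glycolysis, by -0.9743. Herpud1 differed by -0.6894 and Hsp90ab1 by -0.5931, with the other animals at -0.04 to 0.18 and -0.07 to 0.09. The remaining value was Sars in animal 5, at -0.6981 against -0.29 to -0.15.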

How the results depend on the processing

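S_PI against S called 0 genes in each of 15 alternatives, and the difference between stretched and unstretched effects called 0 in each of 14 (a fit of S and S_PI alone cannot give it). Genes at an unadjusted p below 0.05, 340 as reported, numbered 529 with only S and S_PI and the replicate block, 129 with no replicate block, 663 with a replicate block per animal within stretch state, and 220 to 400 when 1 animal was left out, the 220 being without animal 1. The genes excluding 1.5-fold numbered 2470 with no replicate block and 2887 to 4458 when 1 animal was left out, and those excluding 2-fold 6188 to 7562 over all alternatives. NS_PI against NS called 1 higher (0.007551%) and 3 lower (0.02265%) with no filter and 5 lower (0.0601%) with DESeq2. It called 6 higher (0.0721%) and 25 lower (0.3005%) with the replicate block per animal within stretch state. When 1 animal was left out it called 0 to 3 lower, the 3 (0.03645%) being without animal 1. The cause of these shifts was not tested. Of 1709 checks of the largest change not excluded for a named gene, 1644 stayed on their side of 2-fold, 53 lost and 12 gained that bound. Under library size alone the median of all genes was 0.01, beside -0.01. The median interval was widest for genes under 10 CPM, and 3 counts equal 0.958 to 3.00 CPM in these 10 libraries.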

Other observations

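Beside Etfdh and Slc7a1, 16 genes had no overlap between the 5 S and the 5 S_PI libraries; they were chosen after their values were seen, none was called, and the share of all tested genes was 0.144% above and 0.0721% below. Kntc1, a kinetochore protein, had means of 3.87 ± 1.10 CPM in S and 8.43 ± 2.47 CPM in S_PI (SD, n = 5), at 1.12 ± 0.30 (SE), and -0.36 without stretch. Its values rest on few reads, as 3 counts equal 0.958 to 3.00 CPM in these libraries. Mapk9 (JNK2), a stress-activated kinase, had means of 36.4 ± 5.2 and 51.4 ± 10.3 CPM, at 0.50 ± 0.17 (SE), and 0.06 without stretch. Oat, ornithine aminotransferase, had means of 209 ± 22.6 and 269 ± 36.4 CPM, at 0.38 ± 0.17 (SE). Cbx3, a heterochromatin protein, was at 0.54 ± 0.17 (SE) with stretch and 0.43 without. On the lower side, Vps13b, a lipid transfer protein of the Golgi, had means of 18.5 ± 0.315 and 12 ± 3.14 CPM, at -0.63 ± 0.20 (SE). The others were Ankrd39, Capn7, Ckap2, Fam210b, Nckap1, Slc25a5 and Spast above and Gga3, Pex11g, Tmem140 and Ttc12 below. Of these, Ankrd39, Fam210b, Pex11g and Ttc12 had means under 10 CPM, where intervals were widest.

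With the replicate block per animal within stretch state, the inhibitor effect on Ccl20, a chemokine, was 1.41 without stretch (edgeR adjusted p = 0.00178) and 0.51 with stretch (adjusted p = 0.619), and the difference of -0.91 was not called (adjusted p = 0.509). Hspa1a, an inducible heat shock protein, was at 0.74 without stretch (adjusted p = 0.0263) and -0.02 with stretch, a difference of -0.76 that was not called (adjusted p = 0.382).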
